A study of Homo sapiens with 2 samples.

Results

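The genes described here are 10 genes of the endothelium, the cell layer that lines blood vessels, which are known targets of the transcription factor ERG or markers of endothelial cells. They were fixed by name: CDH5, CLDN5, ESAM, PECAM1, ICAM1 and ICAM2, which encode adhesion and junction proteins, TEK and ENG, which encode receptors, and EGFL7 and VWF, which encode secreted proteins. They are 10 of the 19974 protein-coding genes that RefSeq places on chromosomes 1 to 22 and X of GRCh38.p14. A gene was counted as having a peak where a peak's summit lay in the gene or within 10 kb of it, and otherwise its nearest peak was taken.

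The peaks come from chromatin immunoprecipitation with sequencing in F36P, a human erythroleukaemia cell line. AM-ERG cells carried ERG joined to an AM tag in the retroviral vector MSCV-PIG and are labelled as overexpressing ERG. Vector cells carried MSCV-PIG without ERG and are labelled WT for ERG. Both were under puromycin at 1 µg/ml for 4 days, and an antibody to the tag was used in both, so that the experiment asks where tagged, overexpressed ERG sits on chromatin, not where the cells' own ERG does. There was 1 library of each kind and 1 deposited list of 1645 peaks, so no value below has a replicate error and AM-ERG could not be tested against Vector. The sources used here do not say which library the list was called from or what it was called against. F36P is not an endothelial line, and no measurement of endothelial cells was part of these data.

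ERG belongs to the ETS family, whose members bind DNA around the letters GGAA. In endothelial cells it is a lineage factor that keeps the vessel wall quiescent: it activates genes for cell junctions and vessel stability, among them CDH5, CLDN5, ICAM2, ENG, EGFL7 and VWF, and it holds down inflammatory genes such as ICAM1, where it limits access of the NF-κB subunit p65 to the promoter. In the blood system ERG is a stem cell factor. Several of the 10 genes are active in blood cells too: PECAM1, ICAM2, ESAM, ENG and TEK are found on stem cells, platelets or leukocytes.

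Of the 10 genes, 4 had a peak, namely ESAM, ICAM2, ICAM1 and EGFL7, each with a single summit in the gene or within 10 kb. Over all protein-coding genes the share was 9.58% (1913 of 19974). The 6 without a peak by this measure were CDH5, CLDN5, PECAM1, TEK, ENG and VWF. The 10 genes were chosen with earlier results of these data known, so the count is a description and was not tested. By role, the peaks were at 3 of 6 adhesion and junction genes, 0 of 2 receptor genes and 1 of 2 genes for secreted proteins. With any base of the peak in place of the summit the count was 4 (9.66% of all genes), as it was with peaks of q below 0.01 (9.02%) and with each peak given to its nearest protein-coding gene (6.18%). Among the upper 50% of peaks by significance it was 3 (5% of all genes), without ICAM1. By distance from a transcription start within 10 kb it was 2, ICAM1 and EGFL7, of the 4 members whose start was known (7.88% of all genes with a known start). The 10 genes had a median length of 28.1 kb, against 24.2 kb over all protein-coding genes.

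Sequences of 3 kinds are shown beside these values. The first is the stretch before the transcription start of ICAM1, because it is the only promoter of a member gene in the RefSeq table that a listed peak overlaps. Of the 250 bases shown, the first 148 lie inside the peak. The capitals mark GGANNNTCC, a form of the NF-κB site, which was searched for after the data were seen. The stretch is chr19:10270870-10271119 of GRCh38.p14, plus strand.
ICAM1: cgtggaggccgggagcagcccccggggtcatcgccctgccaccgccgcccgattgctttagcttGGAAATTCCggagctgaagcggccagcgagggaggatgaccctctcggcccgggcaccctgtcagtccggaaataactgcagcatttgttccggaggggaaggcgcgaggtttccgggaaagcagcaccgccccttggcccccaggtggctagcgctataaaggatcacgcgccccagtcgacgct

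The second set is the same 250 bases before the first start of EGFL7, whose peak lies farther out, and of ENG and TEK, which had no peak. They are chr9:136658606-136658855 on the plus strand for EGFL7, chr9:127854659-127854908 on the minus strand for ENG and chr9:27108975-27109224 on the plus strand for TEK. Capitals mark the 6-letter ETS forms CGGAAG and AGGAAG, read on either strand.
EGFL7: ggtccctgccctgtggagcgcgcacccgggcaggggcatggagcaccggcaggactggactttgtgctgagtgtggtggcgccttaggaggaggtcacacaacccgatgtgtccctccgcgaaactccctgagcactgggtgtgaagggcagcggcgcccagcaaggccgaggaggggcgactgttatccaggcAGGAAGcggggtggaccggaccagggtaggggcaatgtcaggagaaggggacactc
ENG: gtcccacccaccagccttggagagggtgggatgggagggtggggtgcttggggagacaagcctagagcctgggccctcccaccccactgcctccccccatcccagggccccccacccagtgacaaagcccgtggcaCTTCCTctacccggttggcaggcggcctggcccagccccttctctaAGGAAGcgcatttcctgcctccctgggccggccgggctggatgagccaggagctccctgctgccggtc
TEK: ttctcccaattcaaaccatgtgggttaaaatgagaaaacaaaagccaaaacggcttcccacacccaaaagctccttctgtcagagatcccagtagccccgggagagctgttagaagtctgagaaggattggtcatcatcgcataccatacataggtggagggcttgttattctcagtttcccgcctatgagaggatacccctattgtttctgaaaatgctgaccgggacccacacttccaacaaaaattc

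The third set is the pair of mature miRNAs that the EGFL7 gene hosts, shown because a regulator of EGFL7 can reach them as well. MIR126 makes miR-126, a miRNA of endothelial and blood stem cells that supports signalling by vascular growth factors. Capitals mark the seed, bases 2 to 8. The matures lie at chr9:136670653-136670674 and chr9:136670616-136670636 of GRCh38.p14, plus strand, and their seeds differ.
hsa-miR-126-3p: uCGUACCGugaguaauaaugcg
hsa-miR-126-5p: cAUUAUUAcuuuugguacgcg

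**Figure D1:**
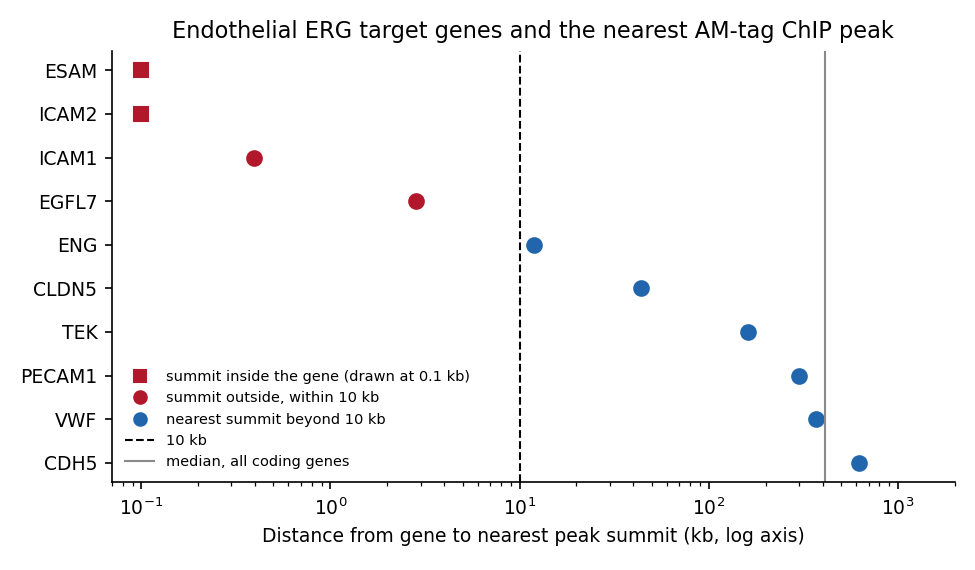
Distance from each of the 10 genes to the nearest peak summit (kb, log axis), with the genes down the page from nearest to farthest. Squares are summits inside the gene (ESAM and ICAM2, drawn at 0.1 kb), red circles summits outside it within 10 kb (ICAM1 and EGFL7) and blue circles nearest summits beyond 10 kb, of which CDH5 alone lies beyond the median of all protein-coding genes, 412 kb (grey line).

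Distances ranged from 0 to 625 kb, with a median of 27.8 kb for the 10 genes, against 412 kb over all protein-coding genes. Summits were nearer than that median for 9 of the 10, the exception being CDH5. A summit lay in or within 1 kb of 3 of the 10 genes, against 7.23% of all protein-coding genes. Within 50 kb it was 6 of 10, with ENG and CLDN5 added, against 17.7%, and within 100 kb still 6, against 25.1%. The genes on either side of the 10 kb limit were EGFL7, with its summit 2.84 kb away, and ENG, with its nearest summit 11.9 kb away.

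Among the adhesion and junction genes, ESAM had a peak inside the gene. ESAM encodes an immunoglobulin-type adhesion molecule of endothelial junctions and platelets, which in mouse also marks blood stem cells. The peak, at chr11:124759244-124759783, had its summit 2721 bp from the gene's higher-coordinate end and 6443 bp from the lower one. Its pileup, the number of fragments stacked over the summit, was 24 (95% exact Poisson interval 15.4 to 35.7), and its local background, the number expected there, was 3.52 fragments. The fold enrichment, which the authors' peak caller gives as pileup over background with 1 added to each, was 5.53 (3.62 to 8.12). All intervals cover the counting error of the pileup only. ESAM's peak also lay inside ESAM-AS1, a noncoding gene that overlaps ESAM, 435 bp from its lower-coordinate end. A second summit, 38.3 kb away and 146 bp from an end of MSANTD2, had a fold of 6.82.

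At ICAM2 the peak was at an end of the gene. ICAM2 encodes an adhesion molecule that endothelial cells, platelets and leukocytes carry at rest, and its promoter is a classic ERG target in endothelium. The peak lay at chr17:64020360-64020638 with its summit 102 bp inside the higher-coordinate end. The pileup was 19 fragments (11.4 to 29.7) on a background of 2.87, a fold of 5.17 (3.21 to 7.92). No end of another protein-coding gene was within 1 kb of it. PECAM1, on the same arm of chromosome 17, had no nearer peak than this one, at 299 kb. PECAM1 encodes CD31, an adhesion molecule of endothelial junctions and platelets, and on its other side the nearest summit was 446 kb away.

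ICAM1, which encodes the leukocyte adhesion molecule that inflamed endothelium displays, had the weakest enrichment of the 4 genes and the highest background. Its peak at chr19:10270585-10271017 had the summit 395 bp outside the gene, before the transcription start. With 33 fragments (22.7 to 46.3) the pileup was higher than at ESAM and ICAM2, though the intervals overlapped. The background, however, was 11.3 fragments, 3.20 times the median of peaks on chromosomes 1 to 22 and X, and the fold was 2.77 (1.93 to 3.86). The 5 other peaks within 1 Mb had a median background of 7.04 fragments, against 3.52 over those chromosomes. The part of this raised background in the ICAM1 peak was not tested. Where peaks with a background above 2 times the median were left out, ICAM1 had no peak and 3 of the 10 genes (ESAM, ICAM2 and EGFL7) had one, against 9.23% of all protein-coding genes.

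In the ICAM1 stretch printed above, the NF-κB form began 186 bases before the start, inside the peak and 209 bp from its summit. The same form occurred 2 times in the window of the second EGFL7 start, at and after the start and outside any peak, so 2 of the 6 member windows held it. It was in 9.32% of the 35116 RefSeq promoter windows, which run from 250 bases before to 50 after a start. The window of ICAM1 held 7 GGAA cores on either strand, 3 of them inside the peak, and the NF-κB form itself overlaps 2 of these 3. A GGAA core was in 95.5% of all windows. Neither CGGAAG nor AGGAAG was in the ICAM1 window. The noncoding gene LIMASI also spans the summit. Of the relatives of ICAM1 on its chromosome, ICAM4 and ICAM5 were 16.2 and 19.2 kb from the same summit. ICAM3 had another summit 446 bp away, with a fold of 2.86 (1.84 to 4.27). That summit lay inside RAVER1, 199 bp from an end of that gene. With each peak given to its nearest protein-coding gene, ICAM3 had no peak.

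CDH5 and CLDN5, the genes for the adherens junction protein VE-cadherin and the tight junction protein claudin-5, had no peak. They are the junction genes most closely tied to ERG in endothelium. The nearest summit to CDH5 was 625 kb away, and 58.5% of protein-coding genes had a nearer one. It lay in CBFB, on the higher-coordinate side, 474 bp from an end of that gene, with a fold of 3.25 (1.94 to 5.17). On the lower-coordinate side of CDH5 the nearest summit was 12900 kb away. For CLDN5 the nearest summit was 43.8 kb away, 34 bp from an end of UFD1 and 239 bp from an end of CDC45. It was among the strongest of the list, with 42 fragments on a background of 2.68 and a fold of 11.7 (8.50 to 15.7), rank 14 of 1645 by fold.

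The 2 receptor genes were without a peak. TEK encodes TIE2, the receptor of angiopoietins on endothelium and blood stem cells. Its nearest summit was 162 kb away, at 208 bp from an end of PLAA and 340 bp from an end of IFT74, with 13 fragments on a background of 1.92 and a fold of 4.79 (2.71 to 7.96). On the other side of TEK no summit lay within 5800 kb. ENG encodes endoglin, a co-receptor for signals of the TGF-β family, which in mouse is driven in endothelium by Fli1, Erg and Elf1. Its nearest summit lay in FPGS, 263 bp from an end of that gene. The peak there had 17 fragments on a background of 3.52 and a fold of 3.98 (2.41 to 6.24). That summit was 11.9 kb from ENG but 51.5 kb from the transcription start of ENG, which is at the gene's other end. The ENG stretch printed above held 2 of the 6-letter ETS forms, beginning 114 and 68 bases before the start, with no peak over them. Neither TEK window held such a form, while its first window had 4 GGAA cores.

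**Figure D2:**
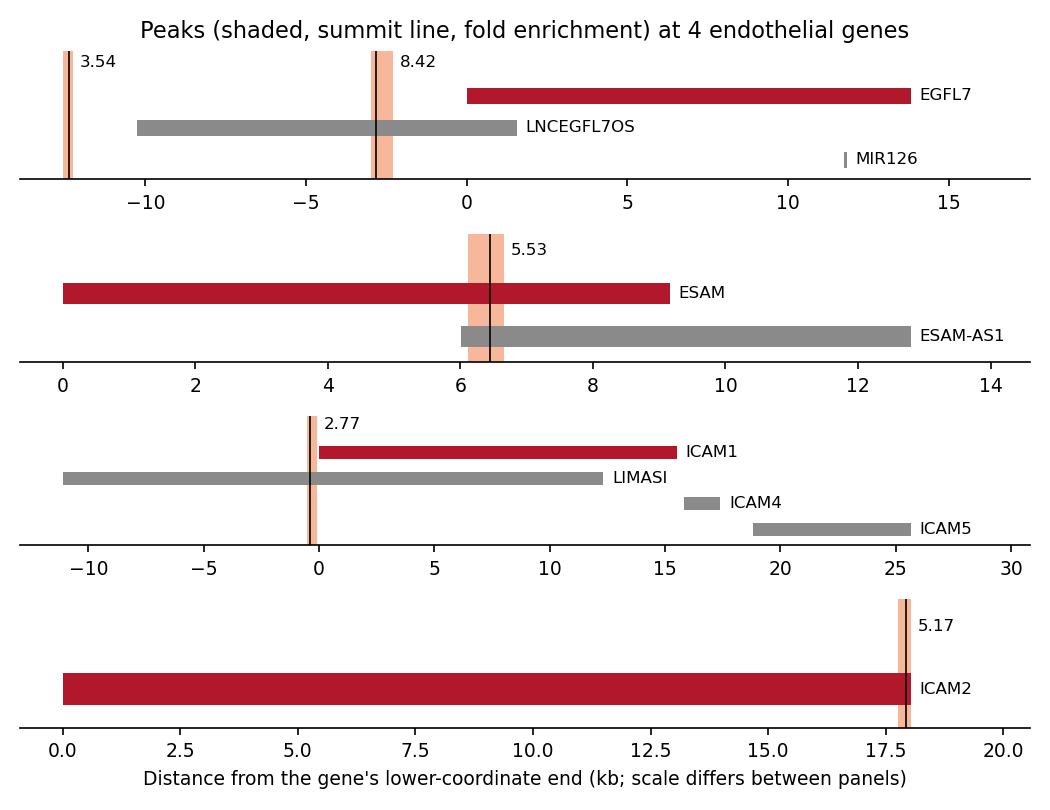
Position of the peaks at the 4 genes with a peak, drawn from the gene's lower-coordinate end (kb, scale differing between panels). Red bars are the genes, grey bars genes named beside them, shading the peaks, vertical lines the summits and numbers the fold enrichment: 8.42 before EGFL7 (with a second peak of 3.54, 12.4 kb out), 5.53 inside ESAM, 2.77 before ICAM1 and 5.17 at an end of ICAM2.

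EGFL7 had the strongest peak of the 10 genes. EGFL7 encodes a secreted protein of endothelium that guides vessel formation. The peak at chr9:136655890-136656564 had its summit 2836 bp outside the gene, before the first transcription start, with 43 fragments (31.1 to 57.9) on a background of 4.22. Its fold of 8.42 (6.15 to 11.3) ranked 83 of 1645, and its −log10 p of 28.7 ranked 75. The summit was inside LNCEGFL7OS, a noncoding gene that overlaps EGFL7, 4401 bp from the end of LNCEGFL7OS that lies within EGFL7. No end of a protein-coding gene was within 1 kb. The hairpin of miR-126 was 14.6 kb from the summit, with no other summit between them.

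A second EGFL7 peak lay just beyond the limit, 12.4 kb before the gene, with 25 fragments on a background of 6.34 and a fold of 3.54 (2.34 to 5.17). On the far side of EGFL7 the nearest summit was 605 kb away. The first EGFL7 window held 1 of the 6-letter ETS forms, beginning 56 bases before the start, and the window of its second start held 2. None was inside a peak. Over the 6 windows of the 4 member genes in the table, 3 held CGGAAG or AGGAAG, where 46.9% of all windows did. In the 250 bases before the start alone the count was also 3 of 6, against 40.8% of all windows, and the longer CCGGAAG was in 0 of 6, against 10.3%. The E-box form CAGCTG was in 0 of 6, against 17.9% of all windows. The AP-1 form TGANTCA was likewise in 0, against 7.71%. The GATA form AGATAA was in 1, a TEK window, against 10.3%. The RUNX form TGTGGT was in 2, of ENG and of EGFL7, against 13.1%. These matches are descriptions of the sequence, and all were searched on both strands.

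VWF, the gene of von Willebrand factor, which endothelium and megakaryocytes store and release for clotting, had no peak over its 175794 bp. Its nearest summit was 369 kb away, between ends of MRPL51 (252 bp) and NCAPD2 (588 bp), with a fold of 4.20 (2.58 to 6.52). On the other side the nearest was 3070 kb away. Of protein-coding genes, 47.4% had a nearer summit than VWF.

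**Figure D3:**
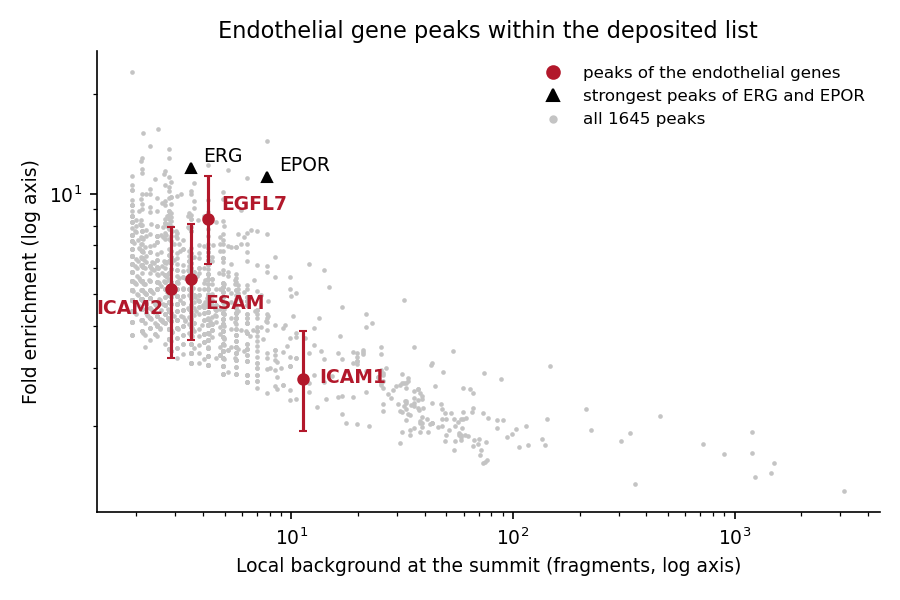
Fold enrichment against local background (fragments) at the summit of all 1645 peaks, both on log axes. Red points are the peaks of the 4 endothelial genes with 95% exact Poisson intervals for the pileup, and black triangles the strongest peaks of ERG and EPOR; EGFL7 (8.42) lies below ERG (11.9) and EPOR (11.2), and ICAM1 lies at a higher background than the other 3.

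The 4 peaks spanned much of the list. By fold, 94.9% of the 1645 peaks were lower than the EGFL7 peak, 72.6% lower than that of ESAM, 65.7% lower than that of ICAM2 and 9.67% lower than that of ICAM1. By −log10 p the same shares were 95.4%, 68.3%, 51.1% and 22.4%. The interval of EGFL7 lay above that of ICAM1 and overlapped those of ESAM and ICAM2, and the interval of ICAM1 overlapped those of ESAM and ICAM2. For comparison, the strongest peak in ERG or within 10 kb of it had a fold of 11.9. For EPOR, the erythropoietin receptor gene, the strongest by the same rule had 11.2.

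The nearest peaks of the 6 genes without a peak all had their summit within 1 kb of an end of another protein-coding gene, 5 of them at genes outside the 10 and 1, for PECAM1, at ICAM2, so that this peak is counted in both sets. Of the 4 peaks counted for member genes, 2 were at the gene's own end (ICAM1 and ICAM2), none was at an end of another protein-coding gene, and those of ESAM and EGFL7 were away from any. Over all listed peaks of chromosomes 1 to 22 and X, 61.8% were at such an end. These counts were not tested against each other, and the 10 kb rule itself keeps the nearest peak of a gene without a peak away from its own end.

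**Figure D4:**
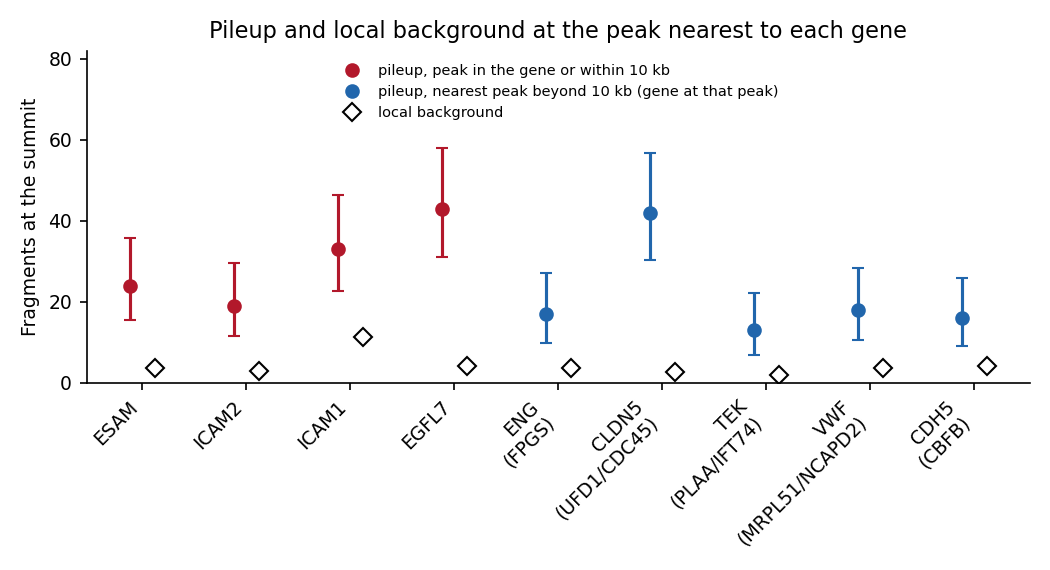
Fragments at the summit of the peak nearest to each gene (circles, with 95% exact Poisson intervals) beside the local background (open diamonds). Red circles are peaks in the gene or within 10 kb, blue circles nearest peaks beyond it with the genes at that peak in brackets; PECAM1 is left out because its nearest peak is that of ICAM2, and the pileup before ICAM1 (33) stands on the highest background (11.3).

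A gene without a listed peak may still hold weaker sites. At a background of 3.52 fragments, the median, the weakest of 129 listed peaks had 13 fragments and a fold of 3.10, and at the lowest background, 1.92 fragments, the weakest of 141 had 10 and a fold of 3.77. At a background of 4.22 fragments, the weakest of 104 had 15. The background at CDH5, CLDN5, PECAM1, TEK, ENG and VWF themselves is unknown, so these counts set no fixed limit there. Sites at these genes with few fragments for their background would not be in the list. The read depth of the libraries is unknown.

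Another 88 endothelial genes, chosen by role with the peaks of some already known, were set beside the 10. Peaks were at 12 of the 88 (13.6%), against 9.58% of all protein-coding genes, and their median distance to a summit was 405 kb, against 412 kb. The 88 thus lay near the background in median distance. Within 1 kb the shares were 13.6% and 7.23%, and within 100 kb they were 26.1% and 25.1%. No test was made of these differences or of that between 13.6% and 9.58%.

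Counts by role are small, stand beside the 9.58% of all protein-coding genes, and were not tested against it. Receptors had peaks at 0 of 15, among them KDR, FLT1, FLT4 and TIE1, the receptors of vascular growth factors and the partner of TIE2. The nearest to one was PLXND1 at 20.4 kb. Genes for ligands and other secreted proteins had 0 of 13, and the nearest summit to any was 137 kb away. Junction and adhesion genes had 4 of 22. NECTIN2, for an adherens junction protein, had the strongest, inside the gene, with a fold of 8.58 (6.11 to 11.7). F11R, for the tight junction protein JAM-A, had 4.40 inside the gene. CTNNB1, for β-catenin, had 2.86 (1.80 to 4.35) at 198 bp from its nearer end, besides ICAM3 above. The CTNNB1 peak was not among those of q below 0.01.

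Beside the same 9.58%, transcription factors had 5 of 19. These were HHEX (fold 11.5), ETS1 (7.86), LYL1 (6.68), ETV2 (5.94) and FLI1 (4.77). The summits lay 700, 70 and 52 bp from the nearer end of HHEX, LYL1 and ETV2. Notch and arterial genes had 1 of 7. This was HEY2, a Notch target of arterial cells, with a fold of 5.16 at 78 bp from its nearer end. NOTCH1 was just beyond the limit, at 11.6 kb from a summit with a fold of 6.64. Genes of vessel function had 2 of 12. PLVAP, for a protein of endothelial pores, had 4.45 at 220 bp from its nearer end. RASIP1, for a regulator of vessel lumens, had 4.21 inside the gene.

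**Figure D5:**
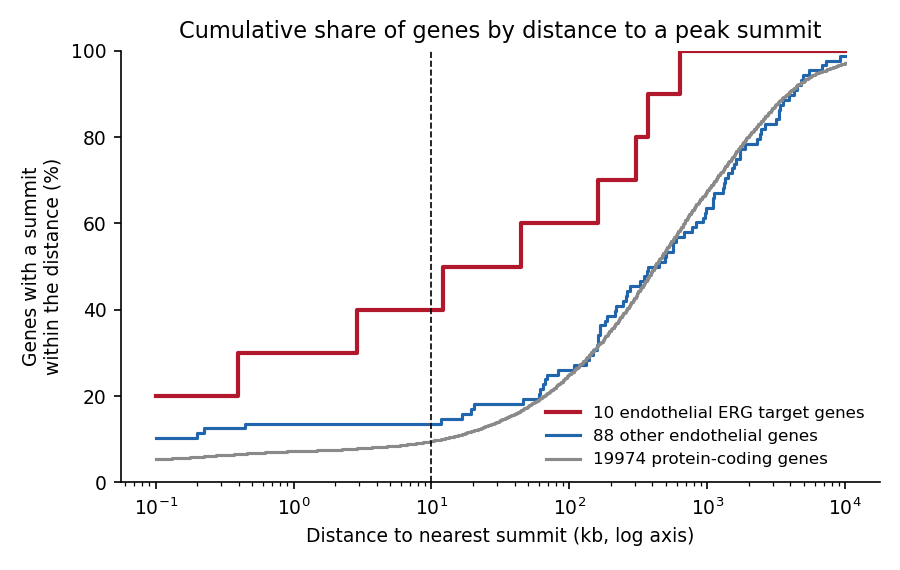
Share of genes (%) with a peak summit within a given distance (kb, log axis), for the 10 endothelial ERG target genes (red), the 88 other endothelial genes (blue) and all 19974 protein-coding genes (grey). At 10 kb (dashed line) the shares are 40.0%, 13.6% and 9.58%, and the blue line then runs close to the grey one.

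Set against what ERG does in endothelium, ICAM1 is the only member named above as held down. Activated and held-down targets therefore could not be compared as kinds. Of the genes named above as activated in endothelium, EGFL7 and ICAM2 had a peak, while CDH5, CLDN5, ENG and VWF had none within 10 kb. ESAM, which had a peak, and PECAM1 and TEK, which had none, were not named in either group. Over all protein-coding genes, 9.58% had a peak. ICAM1, which ERG holds down in endothelium, had a peak before its start, with the lowest fold of the counted peaks (2.77). By fold, 9.67% of all listed peaks were lower. The ICAM1 peak was kept at q below 0.01. It dropped out in the upper 50% of peaks by significance and where peaks of raised background were left out. Expression of the 10 genes in F36P was not analysed here, and a peak alone gives no direction of regulation.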

How the data were processed

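ChIP-seq with an AM-tag antibody used 1 AM-ERG and 1 Vector library of F36P cells, each from 10000000 cells fixed in 1% formaldehyde and cut with micrococcal nuclease for 20 minutes, with 10 µg of chromatin per precipitation, per the labels' protocols. Bowtie2, MACS2, deepTools and build hg38 are named per the submitters' processing notes. Neither versions nor settings are stated in what was used here. The deposited list holds, for each peak, the authors' score, their fold enrichment at the summit, and the −log10 of its p-value and q-value. Pileup and background were recovered from the deposited fold and −log10 p, taking the p as a Poisson tail, and gave back the deposited p for 1645 of 1645 peaks (tolerance 0.001 in log10 p). Tested on simulated data, this recovered 300 of 300 pileups, and 200 of 200 planted gene distances were returned.

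Genes, promoter windows and miRNAs are RefSeq's, on GRCh38.p14. All 98 listed genes matched by symbol. Gene spans carried no strand or exons, so exons, introns and UTRs were not separated, and starts were known for 4 of the 10 members. An end of a gene is either limit of its span, so it may be the transcription start or the far end. Peaks outside chromosomes 1 to 22 and X were not used by gene. The members and lists were chosen with earlier results of these data known, and no chance test was made. Text names the 10 members, listed genes with a peak, genes at the peaks nearest to members, and ERG and EPOR; other genes were named after their values were seen. Alternatives covered window, threshold, background, assignment and motif. Computations used pandas 2.3.3, SciPy 1.17.1, numpy 2.4.6 and matplotlib 3.10.9 under Python 3.11.15.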

Additional observations from a re-analysis of the deposited data

How the results depend on the processing

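No paired analysis was possible because there is a single library per group. The count of 4 members ranged from 2 (by distance to a transcription start, where 4 members could be counted) to 6 (within 50 or 100 kb), as given with each setting above. For the wider list of 88 genes, the count of 12 became 7 of 60 (11.7%) by transcription start, against 7.88% of all genes. It was 23 (26.1%) within 100 kb, against 25.1%, and 6 (6.82%) in the upper 50% of peaks by significance, against 5%. In the other settings it was 11 to 17. For all 19974 protein-coding genes the count of 1913 became 3537 within 50 kb, 5021 within 100 kb, 1246 of 15813 by transcription start, 999 in the upper 50% and 1235 with each peak given to its nearest gene, a setting chosen after seeing the data. These changes follow from wider windows, fewer peaks, fewer genes or 1 gene per peak. Of the 6 promoter windows, 0 held CCGGAAG, 2 the NF-κB form and 6 the GGAA core, where 3 held the 6-letter forms. Without the pseudocount the 4 folds were 2.93 to 10.2. Each lay within the counting interval of the fold with the pseudocount, which is another measure. Unknown depth, 1 library per group and no Vector peak list here limit every value.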
